A study of Oryzias latipes with 24 samples.

Results

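Maternal RNAs seen again at stage 41 are genes whose RNA was abundant in the cleaving egg of medaka (Oryzias latipes), was close to absent at stages 32 to 40, and was abundant again in the fry. They were chosen on TPM, a measure of transcript abundance corrected for transcript length and scaled to about the same total in every library. The mean of the 2 libraries had to be at least 10 TPM at stage 6, under 1 TPM at each of stages 32, 36, 38 and 40, and at least 10 TPM at stage 41. The rule gave 132 genes, of which 4 were left out by name, 1 as a predicted transcription factor and 1 as a long noncoding RNA, which left 126 of the 26549 genes in the table. Because these stages chose the members, their levels there are a description and carry no test.

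The series followed RNA of medaka at 11 stages (6, 11, 15, 19, 25, 29, 32, 36, 38, 40 and 41). Each stage had 2 strand-specific poly(A) libraries. Stages 6 to 40 are embryos, and stage 41 is the larval stage of the paper. The methods also mention larval gonads taken by microdissection, without naming a stage. Many embryos went into each stage according to the methods, so a library stands for a pool of animals; the labels do not say whether the 2 libraries of a stage are separate pools. No animal was treated. Replicate 2 of stages 40 and 41 carries the strain label d-rR / Qurt, and the other 20 libraries are Hd-rR, an inbred medaka strain. The sample table of the study gives the d-rR / Qurt animals as d-rR-Tg(olvas-GFP) X Qurt, in which olvas-GFP is a germ cell reporter driven by the medaka vasa gene. Embryonic long-read transcripts behind the gene models also came from that cross. At stage 41 the strain and the replicate number cannot be told apart, and both libraries are given throughout.

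An egg starts life with RNAs that were made and stored while the oocyte grew in the ovary. These maternal RNAs direct the first divisions and are then removed, as the embryo switches on its own genome. RNAs of this class include those for the egg coat, for translational control in the oocyte and for the germ line, where small RNAs and their partner proteins hold transposons in check.

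The 126 genes made up a visible share of the RNA of the egg. They summed to 31268 and 30716 TPM in replicates 2 and 1 of stage 6, which is 3.13% and 3.09% of the summed TPM of those libraries. Their sum at stage 40 was 16.5 TPM in the d-rR / Qurt library and 16.6 TPM in the Hd-rR library, and 50 members were listed at 0 in both. At stage 41 they summed to 14612 TPM (1.46% of the library) in the d-rR / Qurt library and 5497 TPM (0.553%) in the Hd-rR library. In a whole animal, fewer cells of a type and less RNA per cell cannot be told apart.

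The return was seen in nearly every member in both libraries. At stage 41, 125 of the 126 genes stood at 10 TPM or more in the d-rR / Qurt library and 112 did in the Hd-rR library. The levels ran from 2.80 to 450 TPM with a median of 93.3 TPM in the d-rR / Qurt library, and from 5.19 to 176 TPM with a median of 33.0 TPM in the Hd-rR library. At stage 40 the highest member stood at 1.05 TPM in the d-rR / Qurt library and at 1.59 TPM in the Hd-rR library. The gap between stages 40 and 41 follows from the limits of the choice and is no separate result. Demanding that each library, and not the mean, meet every limit kept 104 of the 126.

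**Figure D1:**
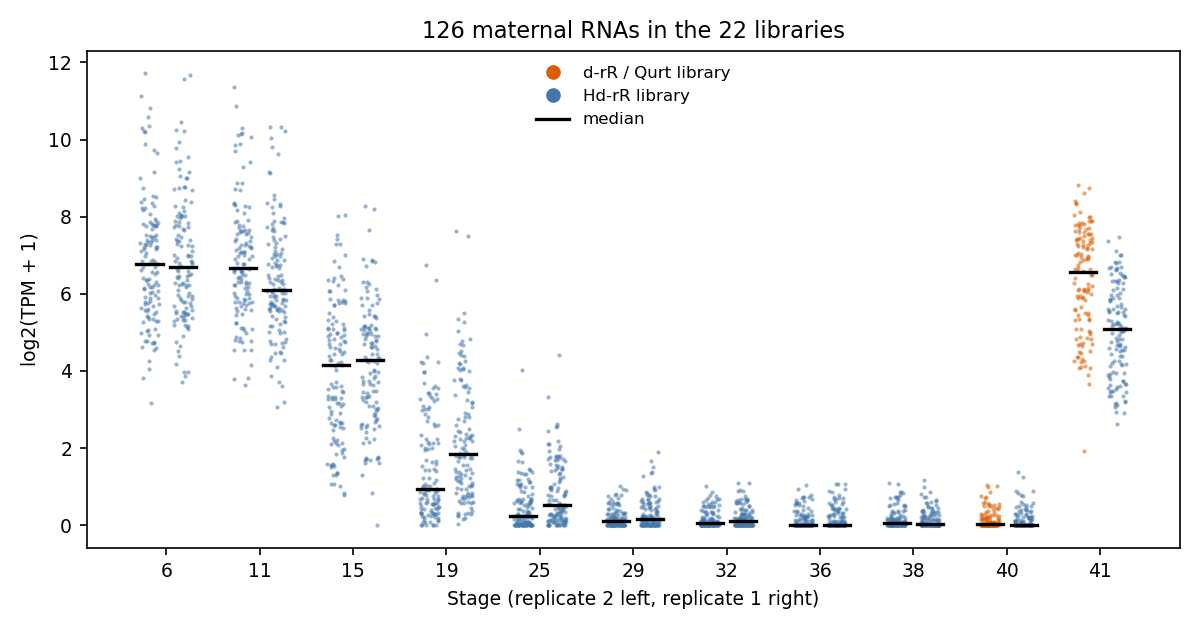
Level of each of the 126 genes, as log2(TPM + 1), in the 22 libraries ordered by stage, with replicate 2 left of replicate 1, orange for d-rR / Qurt, blue for Hd-rR and a black bar for the median. The medians stand at 109 and 103 TPM in replicates 2 and 1 of stage 6, near 0 at stages 32 to 40, and at 93.3 TPM (d-rR / Qurt) and 33.0 TPM (Hd-rR) at stage 41.

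The limits of the rule cut through a continuum at some edges. IGDB19291 (11.3 TPM) and IGDB11324 (17.6 TPM) were the members nearest the stage 6 limit, and IGDB00533 (2.23 TPM) and IGDB19122 (0.793 TPM) were the nearest genes outside it. At the stage 41 limit, tdrd1 (10.2 TPM) and IGDB23353 (10.5 TPM) lay inside and IGDB14057 (9.90 TPM) and IGDB11081 (8.99 TPM) outside. At the upper limit for stages 32 to 40, the highest stage means inside were 0.946 TPM for IGDB25748 and 0.941 TPM for IGDB17175, and those outside were 1.13 TPM for IGDB16534 and 1.15 TPM for IGDB14930.

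The members are one end of a range among the maternal RNAs that were lost. Of 242 genes at 10 TPM or more at stage 6 and under 1 TPM at stages 32 to 40, left-out genes aside, 126 are the members, 84 stood from 1 to under 10 TPM at stage 41, and 32 stayed under 1 TPM. These 84 and 32 genes are called partly returning and non-returning below. The members were the more abundant class in the egg, with a median stage 6 mean of 107 TPM, against 63.6 TPM for the partly returning and 22.1 TPM for the non-returning genes. Conversely, 166 genes were under 1 TPM at stages 32 to 40 and at 10 TPM or more at stage 41, and 126 of them are members while 39 had been under 1 TPM at stage 6.

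Few of the members carry a gene name. Gene symbols were given by matching gene spans to RefSeq genes of assembly ASM223467v1. A RefSeq gene was found for 93 members (73.8%), and 92 of these are protein-coding in RefSeq. The share was 68.2% of all genes and 90.1% of genes at 10 TPM or more at stage 6. It was 85.7% of partly returning and 78.1% of non-returning genes. Only 5 members had a symbol (3.97%), against 35.4% of all genes and 58.4% of genes at 10 TPM or more at stage 6. Symbols were found for 21.4% of partly returning and 43.8% of non-returning genes. The named members are tdrd1, caprin2, ctss, lamb3 and nqo1. All other members are given by the identifier of the study's gene models, and those singled out below by identifier, apart from the ones at the limits above, were chosen after their values were seen.

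tdrd1 (IGDB17658, chromosome 19: 5466641 to 5484088 in the coordinates of the study's gene models) encodes a Tudor-domain protein of the piRNA pathway, which silences transposons in germ cells. It had 45.0 and 64.4 TPM in replicates 2 and 1 of stage 6, 0.979 and 0.844 TPM in the d-rR / Qurt and Hd-rR libraries of stage 40, and 13.8 and 6.60 TPM in those of stage 41. It was the member closest to the stage 41 limit, and its d-rR / Qurt library alone passed 10 TPM.

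caprin2 (IGDB20299, chromosome 23: 11216752 to 11239430) encodes an RNA-binding protein. It had 93.3 and 86.5 TPM in replicates 2 and 1 of stage 6, and 23.9 TPM in the d-rR / Qurt library and 9.16 TPM in the Hd-rR library of stage 41. Both stage 40 libraries were under 0.1 TPM, at 0.0666 TPM (d-rR / Qurt) and 0.0799 TPM (Hd-rR).

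ctss (IGDB12413, chromosome 11: 7254462 to 7256257) encodes cathepsin S, a lysosomal cysteine protease. It had 937 and 746 TPM in replicates 2 and 1 of stage 6 and was the most abundant of the named members there. At stage 41 it had 126 TPM in the d-rR / Qurt library and 34.7 TPM in the Hd-rR library, well short of its level in the egg.

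lamb3 (IGDB23001, chromosome 5: 19890153 to 19910012) encodes a laminin chain of epithelial basement membranes. It had 81.7 and 74.3 TPM in replicates 2 and 1 of stage 6. At stage 41 it had 44.7 TPM in the d-rR / Qurt library and 54.9 TPM in the Hd-rR library, and was the only named member that was lower in the d-rR / Qurt library.

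nqo1 (IGDB23699, chromosome 6: 16962827 to 16964114) encodes a quinone reductase that protects cells from oxidative stress. It had 855 and 511 TPM in replicates 2 and 1 of stage 6, and 171 TPM in the d-rR / Qurt library and 68.0 TPM in the Hd-rR library of stage 41. It was listed at 0 in the Hd-rR library of stage 40 and at 0.0499 TPM in the d-rR / Qurt library.

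As a class, the members were short genes. Their longest transcript had a median of 1062 bases and their models a median of 4 exons and a span of 1387 bases, against 2384 bases, 6 exons and 7216 bases over all genes. The non-returning genes had a median transcript of 1966 bases and 8 exons, and the partly returning genes 2076 bases and 10 exons. The assembled-transcript models of the study (StringTie) supplied 122 of the members (96.8%), against 61.2% of all genes, and the other members came from Ensembl. Unplaced contigs held 10 members (7.94%), against 2.24% of all genes.

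The members also lay beside each other. When neighbouring members within 150 kb were joined, a distance chosen after the positions were seen, 78 of the 126 (61.9%) fell into 20 arrays, and 11 arrays of 3 or more held 60 members. The gene model next to a member was another member for 72 of the 126 genes (57.1%), while none of the 84 partly returning and none of the 32 non-returning genes lay next to one of its own class. Within 150 kb of each other lay 2 of the partly returning genes. Of the 39 genes above that had been under 1 TPM at stage 6, 6 (15.4%) lay next to one of their own. By the same joining, 9 of these 39 (23.1%) fell into arrays. The classes differ in size, and these shares are given as a description. Chromosome 6 held 21 members, chromosome 15 held 14 and chromosome 19 held 13. Genes of near-identical sequence can share reads, so the split of TPM among the genes of an array may be uncertain. No sequence was at hand to measure how alike the genes of an array are, or whether they are copies of each other.

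The largest array lay on chromosome 15 from 7437915 to 7691038 and held 10 members among 16 gene models. Its members had 4 to 5 exons and longest transcripts of 1028 to 1246 bases. They summed to 974 and 846 TPM in replicates 2 and 1 of stage 6, to 2.48 TPM (d-rR / Qurt) and 2.85 TPM (Hd-rR) at stage 40, and to 1934 TPM (d-rR / Qurt) and 413 TPM (Hd-rR) at stage 41. The fry thus exceeded the egg in the d-rR / Qurt library and fell short of it in the Hd-rR library. IGDB14920 was the member of this array with the highest levels, with 296 and 256 TPM in replicates 2 and 1 of stage 6, and 450 TPM in the d-rR / Qurt library and 86.9 TPM in the Hd-rR library of stage 41. Of the 6 other models in the array, 4 were also at 10 TPM or more at stages 6 and 41: IGDB14922, IGDB14929 and IGDB14930 had a highest mean of 1.84, 1.17 and 1.15 TPM at stages 32 to 40, over the limit, and IGDB14925 was among the genes left out. The most abundant of these, IGDB14929, reached 746 TPM in the d-rR / Qurt library and 163 TPM in the Hd-rR library of stage 41.

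The chromosome 19 array, from 2922875 to 2975522, held 9 members among 10 gene models, with 3 to 4 exons and transcripts of 591 to 716 bases. They summed to 1033 and 626 TPM in replicates 2 and 1 of stage 6, and to 1146 TPM in the d-rR / Qurt library and 456 TPM in the Hd-rR library of stage 41. Its last gene, IGDB17585, had the highest ratio of stage 41 to stage 6 among all members (4.54), with 125 TPM (d-rR / Qurt) and 37.5 TPM (Hd-rR) at stage 41, against 22.2 and 13.7 TPM in replicates 2 and 1 of stage 6. The single model of this array that is not a member, IGDB17580, had a stage 6 mean of 142 TPM and stood at 0.00512 TPM in the d-rR / Qurt library and 14.6 TPM in the Hd-rR library of stage 41, the opposite of its neighbours.

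The chromosome 6 array from 27255387 to 27295646 held 9 members and no other gene model. It summed to 841 and 1195 TPM in replicates 2 and 1 of stage 6, and to 1126 TPM in the d-rR / Qurt library and 780 TPM in the Hd-rR library of stage 41. The 2 stage 41 libraries lay closer together here than on chromosome 15. The median ratio of the d-rR / Qurt to the Hd-rR library, taken on TPM + 1 as below, was 1.41 in this array. It was 4.53 in the chromosome 15 array and 2.79 in the chromosome 19 array. With 1 library per strain, these ratios are a description of the libraries. A second array on chromosome 6, from 26361515 to 26509819, held 5 members with a median ratio of 2.33, and an array of 5 on chromosome 4, from 18996957 to 19027617, had a median ratio of 5.17.

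**Figure D2:**
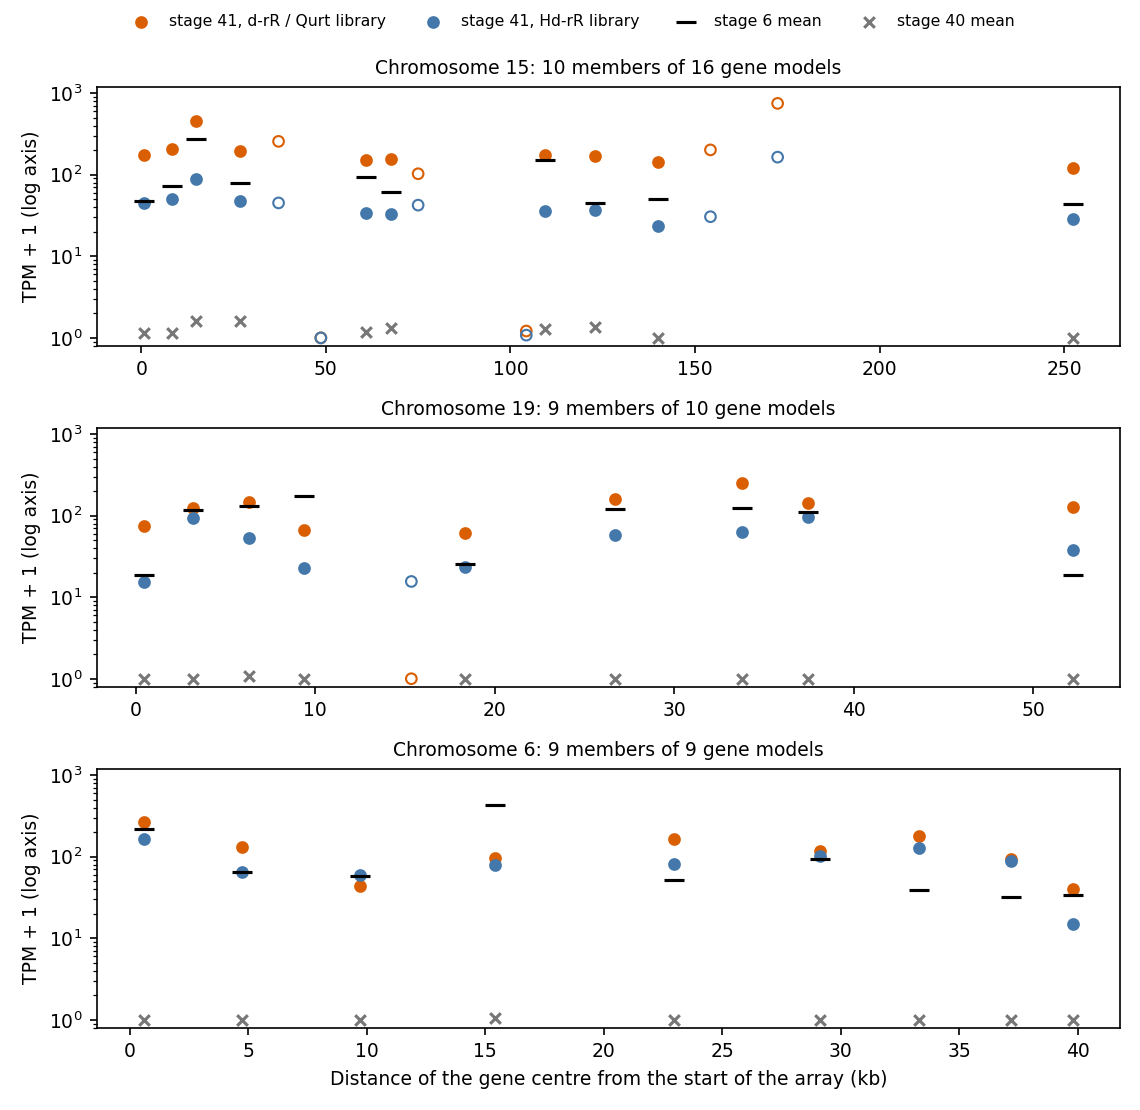
TPM + 1 on a log axis against the distance of each gene's centre from the start of its array, for the 3 largest arrays, with filled points for members, open points for the stage 41 values of other gene models, orange for the d-rR / Qurt and blue for the Hd-rR library of stage 41, black dashes for the stage 6 mean and grey crosses for the stage 40 mean. The outermost members set the ends of each array, and the return of the members is fixed by their choice. The gap between the orange and blue points is wide on chromosome 15 (median ratio 4.53) and narrow on chromosome 6 (1.41).

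The time at which the members were lost was not used by the rule beyond the end points, so the steps between stages 11 and 29 were tested. That a member falls somewhere before stage 32 is fixed by its choice; when it falls is not. All 126 members passed the filter of 1 TPM in at least 2 libraries, which the rule guarantees. A gene was called when the Benjamini-Hochberg adjusted p of limma, over all 21179 tested genes, was under 0.05 and the log2(TPM + 1) change was at least 1 in size.

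Calls of lower RNA were spread over the steps, most of them at the first and second. Stage 15 was lower than stage 11 in 96 of the 126 members and higher in 1, against 20.1% of all tested genes lower and 15.1% higher. Stage 19 was lower than stage 15 in 98, against 8.02% of all genes. Stage 25 was lower than stage 19 in 43, against 1.79%, and stage 29 was lower than stage 25 in 4, against 1.04%. No member was called higher at these 3 steps, and none was higher at an unadjusted limma p under 0.05. The choice keeps every member near absent at the stages that follow, which leaves little room for a rise. The members' median stage means were 1.94, 0.354 and 0.107 TPM at stages 19, 25 and 29. Of all genes, 9.85%, 7.18% and 7.22% were called higher at these steps. Those genes have no such limit, so their shares are no measure for the members. The median log2 change of the members was -2.48, -2.17, -1.03 and -0.24 at the 4 steps in order of stage, against -0.02, 0.01, 0.15 and 0.08 over all tested genes.

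Only some of those counts hold without single libraries. The number lower at stage 25 was 16 without replicate 1 of stage 19 and 17 without replicate 2 of stage 25, and the number lower at stage 19 was 64 without replicate 2 of stage 19. The 4 calls at stage 29 became 1 or 2 without replicate 1 of stage 25 or without either library of stage 29. Summed over the members, there were 600 and 1168 TPM in replicates 2 and 1 of stage 19, and 76.3 and 146 TPM in replicates 2 and 1 of stage 25, so replicate 1 was the higher at both stages.

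The partly returning and non-returning genes had most of their calls at the first step. Stage 15 was lower than stage 11 in 80 of 84 partly returning and 31 of 32 non-returning genes, but stage 19 was lower than stage 15 in only 25 and 4 of them. At stage 25, 4 partly returning genes and no non-returning gene were lower than at stage 19 (12 and 2 at an unadjusted limma p under 0.05). The median stage 15 mean was 16.1 TPM for the members, against 1.73 TPM for the partly returning and 0.678 TPM for the non-returning genes. A gene near 0 at stage 15 has little left to lose, so the later counts of the 3 classes are not independent of their level at stage 15, and the difference between the classes was not tested.

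**Figure D3:**
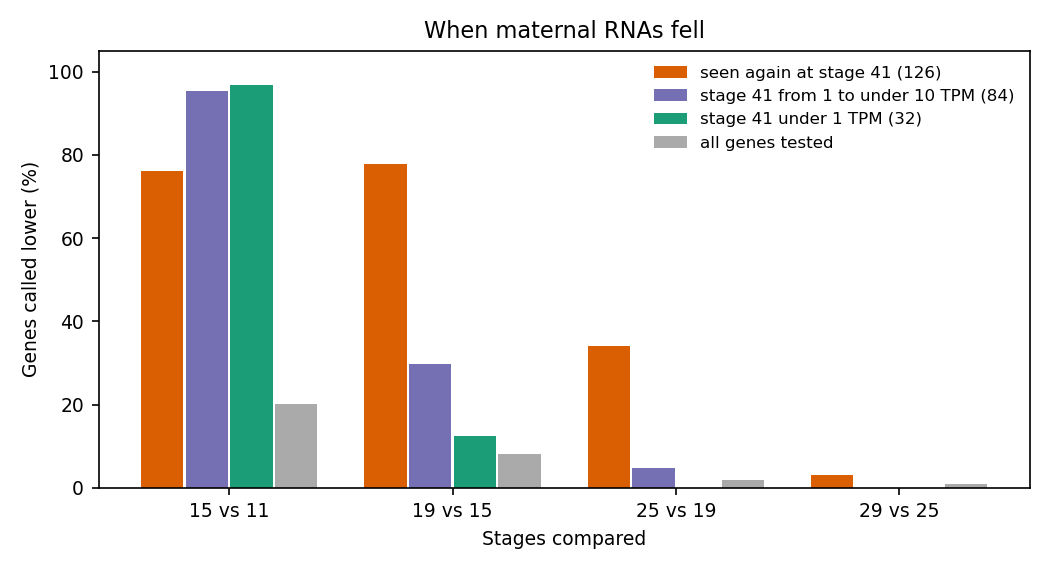
Percentage of genes called lower at each of 4 steps (later against earlier stage), for the 126 members, the 84 genes at 1 to under 10 TPM at stage 41, the 32 genes under 1 TPM at stage 41 and all tested genes. The members' share is 76.2% and 77.8% at the first and second steps and 34.1% at the third, where the non-returning genes stand at 0%.

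The most common pattern of calls was lower at stages 15 and 19 and at no later step, in 58 members. A further 19 were called at stages 15, 19 and 25, 16 at stage 15 alone, 14 at stages 19 and 25, and 3 at no step. These patterns were not counted over all genes. A step without a call can still hold a fall, since 68 members were lower at stage 25 and 16 at stage 29 at an unadjusted limma p under 0.05. Of all 21179 tested genes, 1005 and 844 were lower at that threshold. At stage 15 all 5 named members were called lower than at stage 11, with log2 changes from -5.19 for ctss (SE 0.50, adjusted p = 3.9e-07, limma) to -1.5 for nqo1 (SE 0.42, adjusted p = 0.0085, limma). The call of nqo1 was lost without replicate 2 of stage 11 (log2 change -1.05), without replicate 2 of stage 15 (-1.41) and with a pseudocount of 0.1. At stage 19, ctss, tdrd1, lamb3 and nqo1 were called lower than at stage 15, and caprin2 had a log2 change of -1.21 that missed the threshold (adjusted p = 0.054, limma); it was called with the replicate block, with a pseudocount of 0.1, with a filter of 5 TPM, with median-of-ratios scaling and without the d-rR / Qurt libraries. The call of lamb3 at stage 19 was lost with a pseudocount of 5 (log2 change -0.941). nqo1 alone was also called lower at stage 25 than at stage 19 (log2 change -2.41, SE 0.42, adjusted p = 0.00082, limma).

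The 3 members with the highest ratio of stage 15 to stage 11 lie in the chromosome 6 array of 9. IGDB23954 had 155 and 114 TPM in replicates 2 and 1 of stage 15, against 26.4 and 49.99 TPM in those of stage 11. It was the 1 member called higher at stage 15 (log2 change 1.84, SE 0.47, adjusted p = 0.0043, limma), and both stage 15 libraries lay above both stage 11 libraries. It then stood at 1.25 and 5.0 TPM in replicates 2 and 1 of stage 25, against 80.6 and 195 TPM in those of stage 19 (log2 change -5.11, SE 0.47, adjusted p = 1.4e-06, limma).

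Its neighbours IGDB23955 and IGDB23948 were first called lower at stage 25. IGDB23955 had 30.3 and 44.1 TPM in replicates 2 and 1 of stage 19, 33.5 and 28.9 TPM in those of stage 15 and 30.5 and 31.4 TPM in those of stage 11, and both libraries of stage 25 lay below these, at 4.64 and 9.03 TPM. IGDB23948 had 107 and 180 TPM in replicates 2 and 1 of stage 19, against 184 and 202 TPM in those of stage 15, and then 15.2 and 20.5 TPM at stage 25. These 3 genes and IGDB14945 are the 4 members called lower at stage 29 than at stage 25. The 3 genes would share reads if they are alike in sequence, which was not measured. Their courses may therefore not be separate observations.

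The most abundant maternal member was among those with the smallest share left at stage 15. IGDB14309, a single-exon gene on chromosome 14 (8791199 to 8791937), had 3365 and 3253 TPM in replicates 2 and 1 of stage 6 and 17.5 and 40.5 TPM in those of stage 15. It was lower at stage 15 than at stage 11 by a log2 change of -5.67 (SE 0.39, adjusted p = 1.2e-08, limma). At stage 41 it had 101 TPM in the d-rR / Qurt library and 48.0 TPM in the Hd-rR library.

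Members with a higher share of their stage 11 level left at stage 15 tended to have a higher ratio of stage 41 to stage 6. Across the 126 genes, the ratio of stage 15 to stage 11 and the ratio of stage 41 to stage 6 had a Spearman rho of 0.67, given as a description without a test. The 2 ratios share no library, but their denominators are similar maternal levels, with a median stage 11 to stage 6 ratio of 0.943. Ratios over similar denominators can correlate even where the numerators are unrelated. How much of the rho comes from this was not tested. The stage 15 and stage 41 means themselves had a rho of 0.55. The genes also share arrays. The longest transcript had a rho of -0.22 with the first ratio and -0.28 with the second. The rule cut stages 6 and 41 at 10 TPM each. The second ratio therefore has a floor, which falls as the stage 6 mean rises, and how far this bears on the rho was not tested. The stage 6 and stage 41 means themselves were hardly related (rho 0.20), while the members kept their order between the replicates, with a rho of 0.80 between the d-rR / Qurt and Hd-rR libraries of stage 41 and 0.92 between both libraries of stage 6.

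The level regained varied widely. The ratio of the stage 41 mean to the stage 6 mean had a median of 0.643 and a range from 0.0142 to 4.54; it was above 1 in 41 members and under 0.1 in 19. The median was 0.888 for the 60 members in arrays of 3 or more, 0.694 for the 18 in pairs and 0.313 for the 48 standing alone. Their median stage 6 means were 93.8, 110 and 147 TPM in that order, and the lowest ratio that the limits allow falls as the stage 6 mean rises. Stage 6 held the highest stage mean of 63 members, stage 11 that of 22 and stage 41 that of 41. IGDB20728 on chromosome 24, a 21-exon gene, had 394 TPM in the d-rR / Qurt library and 176 TPM in the Hd-rR library of stage 41, against 70.4 and 67.9 TPM in replicates 2 and 1 of stage 6, and both stage 41 values lay above both stage 6 values.

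**Figure D4:**
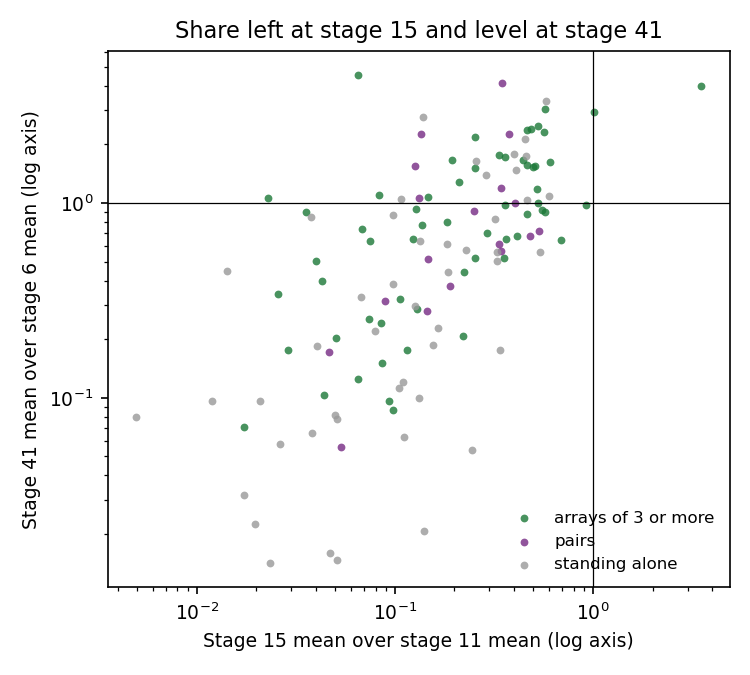
Stage 41 mean over stage 6 mean against stage 15 mean over stage 11 mean, both on log axes, with 1 point per member, green for arrays of 3 or more, purple for pairs and grey for genes standing alone; lines mark a ratio of 1. Points run upward to the right (Spearman rho 0.67), and the lowest stage 41 to stage 6 ratios, down to 0.0142, are grey. The limits of the choice set a floor under the stage 41 to stage 6 ratio.

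The 2 stage 41 libraries, which the rule used only through their mean, differed in 1 direction for most members. The ratio of the d-rR / Qurt library to the Hd-rR library, on TPM + 1, was at least 2 in 93 of 126 members (73.8%) and at most 1/2 in 2, against 7.29% and 2.55% of all tested genes. The choice bears on this split. At 10 TPM or more stood 125 members in the d-rR / Qurt library and 112 in the Hd-rR library. Some members thus met the limit on the mean through 1 library, more often the d-rR / Qurt library. The split was not counted without them. Its median was 2.55, with 10th and 90th percentiles of 1.26 and 4.92. In all, 118 members were higher in the d-rR / Qurt library, as were 12880 of the 21179 tested genes. Over all tested genes the median was 1.10. Among the 10755 genes at 10 TPM or more in a stage 41 library, 9.67% were at least 2-fold higher and the median was 1.16. With 1 library per strain there is no replicate check on any of these ratios.

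The replicates also differed at stages where both libraries are Hd-rR, in either direction. The members' median ratio of replicate 2 to replicate 1, on TPM + 1, was 1.04 at stage 6, 1.42 at stage 11, 0.894 at stage 15, 0.637 at stage 19 and 0.858 at stage 25. At stage 11, 35 members were at least 2-fold higher in replicate 2 and 1 was at least 2-fold lower. Their sums were 28058 TPM in replicate 2 and 18929 TPM in replicate 1. At stage 19 none was at least 2-fold higher and 32 were at least 2-fold lower. At these stages the same was not counted over all genes. The counts therefore do not tell a trait of the members from a difference between whole libraries. Among the 39 genes that were under 1 TPM at stage 6 and at stages 32 to 40 and at 10 TPM or more at stage 41, the split ran both ways, with 11 at least 2-fold higher, 7 at least 2-fold lower and a median ratio of 0.958. The members' ratio had a median of 2.40 in arrays of 3 or more, 2.67 in pairs and 2.48 for genes standing alone.

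**Figure D5:**
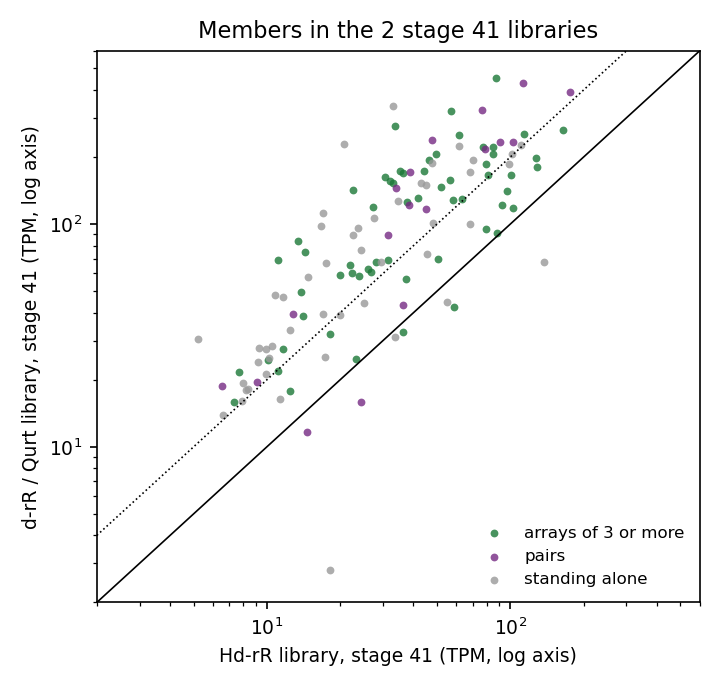
TPM in the d-rR / Qurt library against TPM in the Hd-rR library of stage 41, on log axes, with 1 point per member, green for arrays of 3 or more, purple for pairs and grey for genes standing alone; the solid line is equality and the dotted line a 2-fold difference. Most points lie above the solid line, 93 of 126 are at least 2-fold higher in the d-rR / Qurt library and IGDB23353 lies far below it.

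The 2 largest ratios belonged to genes on unplaced contigs. IGDB10316 had 229 TPM in the d-rR / Qurt library and 20.8 TPM in the Hd-rR library (ratio 10.5), and IGDB10857 had 341 TPM and 33.0 TPM (ratio 10.05). Both also differed between the Hd-rR libraries of stage 15, where IGDB10857 had 82.4 and 33.5 TPM in replicates 2 and 1.

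The 2 members that were at least 2-fold lower in the d-rR / Qurt library were IGDB23353 and IGDB23042. IGDB23353, on chromosome 6 (3685332 to 3686584), had 2.80 TPM in the d-rR / Qurt library and 18.1 TPM in the Hd-rR library of stage 41. It was the only member under 10 TPM in the d-rR / Qurt library. IGDB23042, on chromosome 5, had 67.3 TPM in the d-rR / Qurt library and 138 TPM in the Hd-rR library, but its replicates 2 and 1 of stage 6, both Hd-rR, already differed at 512 and 3041 TPM.

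Oocyte and germ line genes outside the members were examined at the same step with lists assembled by symbol. Of 13 tested genes of a list of oocyte factors, zar1, zar1l, bmp15 and figla themselves met the limits that chose the members and were left out of them, so their rise is fixed by that choice. Of the other 9, 3 were higher at stage 41 than at stage 40 (cpeb1, nanog and ybx2) and none was lower by limma. Among all tested genes, 5.22% were called higher and 9.71% lower. At an unadjusted limma p under 0.05, 8 of all 13 were higher and 0 lower. These 8 include zar1, zar1l, bmp15 and figla, whose rise is fixed. That count also uses a looser threshold than the shares of all tested genes, so it is not set against them. cpeb1, which controls translation of stored RNAs in the oocyte, had 31.4 TPM in the d-rR / Qurt library and 9.99 TPM in the Hd-rR library of stage 41, against 1.11 TPM and 0.880 TPM in those of stage 40. bmp15, a growth factor secreted by oocytes, had 20.8 TPM in the d-rR / Qurt library and 6.65 TPM in the Hd-rR library of stage 41, against 0.0538 TPM and 0.0567 TPM in those of stage 40. figla, an oocyte transcription factor that directs egg coat genes, had 14.5 TPM in the d-rR / Qurt library and 6.83 TPM in the Hd-rR library of stage 41. dnd1, a germ plasm factor, was not called and stood at 0.493 TPM (d-rR / Qurt) and 0.106 TPM (Hd-rR).

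Of 32 tested germ cell and meiosis genes, tdrd1 aside, 7 were higher and none lower by limma (10 and 0 at an unadjusted p under 0.05): ddx4, nanos3, piwil1, tdrd9, mov10l1, rnf17 and spdya. Some of the 32 also belong to the classes set by stage 41 level. Partly returning are tdrd9, mov10l1 and rnf17, and asz1 and dmc1, which were not called. Non-returning are dazl, spo11 and sycp1, none of them called. ddx4, the vasa helicase that marks germ cells, had 24.1 TPM in the d-rR / Qurt library and 7.98 TPM in the Hd-rR library of stage 41, against 2.73 TPM and 1.05 TPM in those of stage 40. Between the stage 41 libraries, on TPM + 1, the d-rR / Qurt library was higher in 24 of these 32 genes and at least 2-fold higher in 5 (ddx4, nanos3, mov10l1, spo11 and spdya), with a median ratio of 1.37 and none at least 2-fold lower. Among the 9 oocyte factors it was higher in 7 and at least 2-fold higher in 3 (mos, cpeb1 and nanog), with a median ratio of 1.65. Most tested genes leaned the same way: 12880 of 21179 were higher in the d-rR / Qurt library. Of all tested genes, 7.29% were at least 2-fold higher and 2.55% at least 2-fold lower, with a median ratio of 1.10. Others were level or ran the other way, such as piwil2 with 7.38 TPM (d-rR / Qurt) and 7.83 TPM (Hd-rR) and cnot6l with 32.1 TPM (d-rR / Qurt) and 45.2 TPM (Hd-rR). Whether what moves these genes has a part in the members' ratio was not tested.

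Over all genes, median-of-ratios scaling gave 1494 lower and 1511 higher calls at this step, against 2057 lower and 1105 higher as deposited, and the median log2 change was -0.02, against -0.22 as deposited. Of 70 list genes, the 4 that met the limits included, 18 were then higher at stage 41, against 16 as deposited.

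The other lists hold few tested genes. Of 6 genes of primordial germ cell fate, 2 were higher (ddx4 and nanos3, also counted above), and of 11 testis and sperm genes none was called in either direction by limma (none higher and 3 lower at an unadjusted p under 0.05). Of 8 tested genes of a list drawn up for ovarian somatic cells and steroid synthesis, gsdf was higher and inhbb lower. gsdf had 9.30 TPM (d-rR / Qurt) and 4.15 TPM (Hd-rR) at stage 41. star missed the limit on size (log2 change 0.979, adjusted p = 0.036, limma), with 10.6 TPM (d-rR / Qurt) and 23.6 TPM (Hd-rR). Between the stage 41 libraries, 6 of the 8 were higher in the d-rR / Qurt library, 1 at least 2-fold (gsdf), and 1 was at least 2-fold lower (star). Of 4 yolk and liver genes, hpx was higher, with 211 TPM in the d-rR / Qurt library and 512 TPM in the Hd-rR library, which is the opposite order to the members. At stage 41, 0 of these 4 were higher in the d-rR / Qurt library, and their median ratio was 0.605. foxl2, a transcription factor of ovarian granulosa cells, had 6.02 TPM (d-rR / Qurt) and 5.20 TPM (Hd-rR) at stage 41, against 7.79 TPM and 9.73 TPM at stage 40, and was not called. None of the 19 egg coat genes of the lists was found by symbol, so that group was not examined.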

How the data were processed

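RNA of the 22 embryo and larva libraries was used. The deposited values are gene-level TPM, which the authors computed with HISAT2 2.1.0 and StringTie 1.3.3b on their own gene models. Such values hold no information on depth, which is therefore unknown, and no counting interval is given. All 22 value columns were matched to samples by stage and replicate. The labels do not say whether the libraries of a stage are separate pools, so p-values measure only the spread between them. The members and gene lists were chosen with earlier results of these data known.

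For the steps between stages, log2(TPM + 1) of the 21179 genes reaching 1 TPM in 2 or more of the libraries was modelled in limma (version 3.58.1, R 4.3.3), with 1 mean per stage over all 22 libraries, eBayes with a trend, and p adjusted by Benjamini-Hochberg within a step; changes on this scale understate those of low genes. The script was tested on simulated data for stage 15 against stage 11, with falls given to abundant genes. Of falls of 1 log2 unit 10% were called, of 2 units 76%, of 3 units 96% and of 4 units 98%, with 8 false calls. A missing call is therefore weak evidence that a small fall is absent. The ratio of both stage 41 libraries used TPM + 1. Symbols came from RefSeq spans (ASM223467v1) with a Jaccard index of at least 0.5 and mutual best match: 18106 of 26549 genes matched, and 2326 did after the coordinates were shifted by 200000 bases. The chromosome coordinates are those of the authors' gene models, deposited as other values (positions counted from 1), and their build is not given in the sources used here. Genes to be named were the 12 highest with a symbol at stage 6, at stage 41 and in ovary, members of a list, and the 2 nearest each limit; only 5 members had a symbol. The deposited gonad table was not used: both of its value columns are named ovary and differ in 4 rows only, and its identifiers did not follow those of the time course (Spearman rho with stage 6 across identifiers 0.18), so the planned ovary and testis comparison was not made. Alternatives were other pseudocounts, filters, scalings and limits, a replicate block and single libraries left out. Python 3.11.15 drew the rest.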

Additional observations from a re-analysis of the deposited data

How the results depend on the processing

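The number of members stayed between 100 and 148 under other TPM limits, under each library in place of the mean and under median-of-ratios scaling, and was 114 to 134 with 1 stage 41 library left out; 77 in place of 78 members lay in arrays when neighbours had to be within 50 kb, an alternative chosen after seeing the data. At stage 41, 26 members were at least 4-fold higher in the d-rR / Qurt library, against 0.666% of all tested genes. With a pseudocount of 5, 80 were at least 2-fold higher (3.03% of all tested genes), and with 0.1, 95 were (11.2%). With median-of-ratios scaling 72 were, against 4.92%. The calls at the later steps depend on the pseudocount. With a pseudocount of 0.1, 73 members were lower at stage 25 and 19 at stage 29, against 435 and 226 of all tested genes. With a pseudocount of 5, 16 and 1 members were, against 225 and 126 of all tested genes. There, 9 list genes were higher at stage 41 (16 as reported, 4 of them fixed by the limits of the choice). With 1 library left out in turn, 84 to 91 members were lower at stage 15, 64 to 100 at stage 19, 16 to 46 at stage 25 and 1 to 6 at stage 29, and 11 to 17 list genes were higher at stage 41. The count at stage 29 was 1 without replicate 1 of stage 25, 1 without replicate 2 of stage 29 and 2 without replicate 1 of stage 29. Log2 changes near 0, none of them called, turned sign in 6 cases. The change of lamb3 was -0.244 at stage 25 and -0.172 at stage 29 with quantile normalization. With 1 library left out, it ran from -0.185 to 0.324 at stage 25 for lamb3, from -0.112 to 0.0317 at stage 25 for tdrd1 and from -0.272 to 0.0905 at stage 29 for caprin2. The cause was not tested.

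The differences between replicates 2 and 1 were correlated over 0.1 in 53 of 55 pairs of stages (lowest 0.05, median 0.26, highest 0.67). This hints that libraries of 1 replicate number share something, which the reported p-values do not account for. The labels name no shared source and not every pair passed 0.1, so the fit without the block was kept as the one reported. With the replicate block, 98, 108, 47 and 4 members were lower at stages 15, 19, 25 and 29, and 18 list genes were higher at stage 41. Of all tested genes, 4497, 2005, 499 and 324 were then lower at stages 15, 19, 25 and 29. The comparison of adult ovary with adult testis was not run. TPM without read counts leave the error of values near 0 unknown, and each strain has 1 library at stage 41.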
